A study of Mus musculus with 2 samples.

Results

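Desmosomes are the spot-like junctions that hold keratinocytes together and tie the keratin filaments of neighbouring cells to each other. The 10 genes described here encode their parts: the cadherins Dsg2, Dsg3, Dsc1, Dsc2 and Dsc3, the plaque proteins Jup, Pkp1 and Dsp, the tetraspan membrane protein Perp, and Cdsn, which is added to desmosomes in the outermost layers. They were chosen by name. The values come from every probe set, the group of probes that together report a transcript, to which the platform annotation gives exactly 1 symbol from this list. Of the 10 genes, 9 have such a probe set, among 8251 genes on the array, and together they hold 13 probe sets. No probe set carried Dsg3 as its single symbol, so Dsg3, the desmoglein of the lower epidermal layers, was not analysed here.

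The study compared skin of newborn K5-/- mice, which lack keratin 5, with skin of newborn wildtype mice. Keratin 5 is a filament protein of the basal epidermal layer, and its loss is a model of epidermolysis bullosa simplex (EBS), a blistering disease. RNA of 6 animals per group was pooled before labelling and each pool was read on 1 array, so there are 2 arrays, no replicates and no test, and variation between animals is not measured. Strain and sex are not given in the labels used here, and the source name says epidermis where the titles and the protocol say skin.

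In a desmosome the extracellular parts of desmogleins and desmocollins bind across the gap between cells. Inside the cell, plakoglobin (Jup) and plakophilins bind the cadherin tails, and desmoplakin (Dsp) links this plaque to keratin filaments. The filaments that end at desmosomes in basal keratinocytes are made of keratins 5 and 14, the pair disrupted in K5-/- mice. In the upper layers the cadherins are exchanged for others, and desmosomes become corneodesmosomes, which proteases cut when the skin sheds.

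The desmosome genes had nearly the same signals in K5 knockout and wild type skin. Dsc1 and Cdsn, both of the upper epidermal layers, were 1.40-fold and 1.31-fold higher in the knockout, and the other 6 measured genes differed by at most 1.10-fold. The lowest ratio was that of Pkp1, also a gene of the upper layers, 1.10-fold lower in the knockout. Values are MAS5 intensities, an Affymetrix summary of the probes of a probe set on a linear scale, after scaling both arrays to a common level. Signals under a floor of 246.7 signal units, the 40th percentile of all values, were treated as not measured. Above this floor on both arrays were 8 of the 10 genes. Of these, 0 differed at least 2-fold in either direction and 0 differed at least 1.5-fold. Over all 5976 measured genes, 1.54% were higher in the knockout by 2-fold or more and 0.703% lower, 2.24% together. At 1.5-fold the shares were 7.63% higher and 5.27% lower, 12.9% together. At such shares a count of 0 among 8 genes lies near the background. The higher and lower 2-fold calls over all genes numbered 92 and 42, and with quantile normalization 79 and 58.

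The median log2 ratio of knockout over wild type was 0.08 over the 8 measured desmosome genes and 0.04 over all measured genes. The ratio was above 0 for 5 of the 8 (4 with quantile normalization), against 53.9% of all measured genes. Log2 ratios ran from -0.13 for Pkp1 to 0.49 for Dsc1, inside the range of -0.74 to 0.85 that held the central 95% of all measured genes. The available measure of technical error was how far apart probe sets for a single gene lay, with a standard deviation (SD) of 0.30 on the log2 scale over 838 genes. The ratios of 6 desmosome genes were within 1 such SD of 0, and those of Dsc1 and Cdsn were farther from 0. This SD holds no variation between animals or pools. Probe sets of a gene also share the RNA, its labelling and the array, so error common to them is left out. In a pooled tissue sample, fewer cells of a type and less RNA per cell cannot be told apart.

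**Figure D1:**
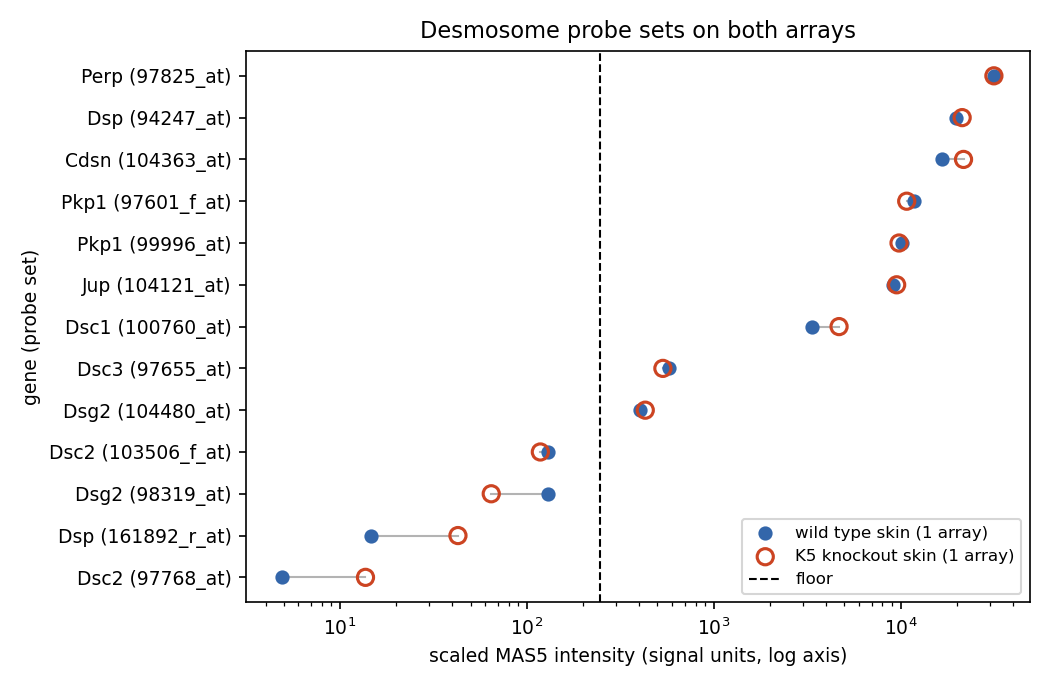
Scaled MAS5 intensity (signal units, log axis) of the 13 probe sets of desmosome genes, 1 row per probe set; filled points are the wild type array, open circles the knockout array, and the dashed line is the floor of 246.7. The 9 probe sets above the floor had close signals on both arrays, with the widest gaps for Dsc1 and Cdsn, and 4 probe sets lay below the floor on both arrays.

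The cadherins that could be measured were Dsc1, Dsc3 and Dsg2. Dsc1, the desmocollin of the upper epidermal layers, read 4685 in knockout skin and 3342 in wild type skin (probe set 100760_at). It was 1.40-fold higher in the knockout, a log2 ratio of 0.49, the highest of the desmosome genes. This ratio lay at percentile 88.5 of all measured genes and at percentile 94.1 of the brightest quartile of genes. Dsc1 thus stood toward the upper end of genes of like brightness, with 1 probe set as its source.

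Dsc3, the desmocollin of the lower layers, read 535 in knockout skin and 575 in wild type skin, a log2 ratio of -0.10. Dsg2, a desmoglein found in many epithelia, read 430 and 402 with probe set 104480_at, a log2 ratio of 0.10. Both differed by 1.07-fold, in opposite directions. Their signals were not far above the floor, and the sign of the Dsg2 ratio turned with quantile normalization (-0.02) and with a correction of the ratio for signal level (-0.03).

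The second Dsg2 probe set, 98319_at, read 64.5 in knockout skin and 130.5 in wild type skin, below the floor on both arrays. Dsc2, a desmocollin of many epithelia, was below the floor on both of its probe sets. It read 118 and 129 with 103506_f_at, and 13.7 and 4.90 with 97768_at, knockout first. No ratio is given for these, and no statement on Dsc2 can be made from them. With the floor lowered to the 25th percentile, 86.9 signal units, 103506_f_at gave a log2 ratio of -0.13. Dsc3, Dsc2 and Dsc1 are direct neighbours among protein-coding genes in RefSeq's GRCm38.p6 gene table, as are Dsg3 and Dsg2, so the highest ratio in the group and a ratio below 0 came from the same gene cluster.

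The plaque genes showed the smallest differences as a group, with log2 ratios between -0.13 and 0.11. Dsp, which anchors keratin filaments, read 21344 in knockout skin and 19771 in wild type skin with probe set 94247_at, a log2 ratio of 0.11. Its other probe set, 161892_r_at, read 42.8 and 14.7 and was not measured. Jup, shared between desmosomes and adherens junctions, read 9525 and 9122, a log2 ratio of 0.06. Both genes were thus within 1.08-fold of their wild type signal.

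Pkp1, the main plakophilin of the upper layers, was the single desmosome gene with 2 probe sets above the floor. Probe set 97601_f_at read 10781 in knockout skin and 11833 in wild type skin, and 99996_at read 9807 and 10161. Their log2 ratios were -0.13 and -0.05, which differ by 0.08. Both probe sets gave slightly lower signals in the knockout, by less than the SD of 0.30.

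Perp, a p53 and p63 target gene that desmosomes of stratified epithelia need, had the brightest probe set of the list and the smallest difference. It read 31562 in knockout skin and 31657 in wild type skin, a log2 ratio of -0.0044. Trp63, which encodes p63, read 2494 and 3627, 1.45-fold lower in the knockout, and is named here after its values were seen. The Perp signal in the knockout was thus 0.997 times that in the wild type, beside a Trp63 ratio at percentile 6.27 of all measured genes.

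Cdsn encodes corneodesmosin, a secreted glycoprotein of the granular and cornified layers whose loss is lethal after birth in mice. It read 21709 in knockout skin and 16626 in wild type skin (probe set 104363_at). It was 1.31-fold higher, a log2 ratio of 0.38, at percentile 82.9 of all measured genes and percentile 90.9 of the brightest quartile. Of all desmosome genes, Dsc1 and Cdsn thus had the highest ratios, and both encode proteins of the upper layers. Pkp1, also of the upper layers, had the lowest ratio, -0.13. Without Dsc1 and Cdsn, the other 6 genes had a median log2 ratio of 0.03.

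**Figure D2:**
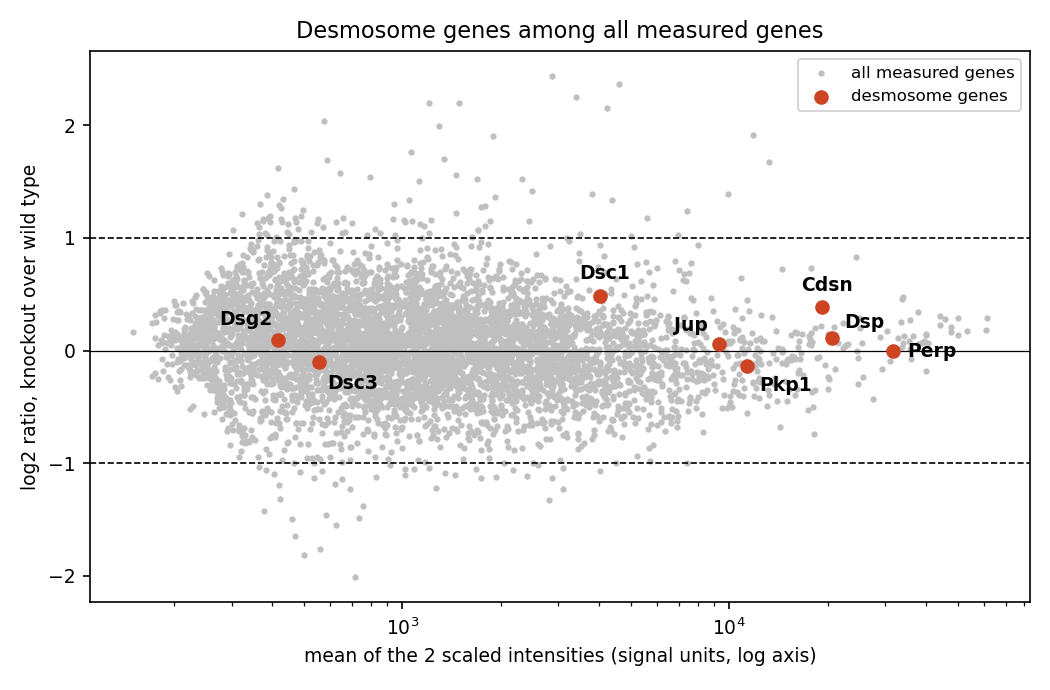
Log2 ratio of knockout over wild type against the mean scaled intensity of both arrays (signal units, log axis) for 5976 measured genes (grey) and the 8 measured desmosome genes (red); dashed lines mark 2-fold. Dsc1 (0.49) and Cdsn (0.38) lie in the upper part of the cloud, the other desmosome genes near 0, and the sign of Dsg2 (0.10) turned with quantile normalization and with the correction for signal level.

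Differences between the genes themselves were small against the spread between probe sets of a gene. Among 28 pairs of measured desmosome genes, 6 had log2 ratios apart by more than 0.42, the SD that the spread between probe sets gives for a difference of 2 genes if their errors are independent. All 6 involved Dsc1 or Cdsn, and 0 pairs were apart by more than 2 such SDs. The widest pair was Dsc1 and Pkp1, apart by 0.62, and the neighbours in the order from Dsp to Perp were apart by less than 0.1.

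Promoters of 3 members are in RefSeq's table (GRCm38.p6), and they are shown for Dsp and Jup, whose signals were nearly equal on both arrays, and for Cdsn, whose ratio was among the highest of the list. Each run is the gene's strand, 5′ to 3′, from 250 to 51 bases before a transcript start, at chr13:38151044-38151243 (plus strand) for Dsp, chr11:100397841-100398040 (minus strand) for Jup and chr17:35542851-35543050 (plus strand) for Cdsn. Capitals mark matches, on either strand, to the motifs searched.
Dsp: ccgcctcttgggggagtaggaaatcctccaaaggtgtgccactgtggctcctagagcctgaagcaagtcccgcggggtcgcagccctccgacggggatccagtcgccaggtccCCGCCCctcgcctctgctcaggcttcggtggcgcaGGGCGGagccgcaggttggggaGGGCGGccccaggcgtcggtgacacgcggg
Jup: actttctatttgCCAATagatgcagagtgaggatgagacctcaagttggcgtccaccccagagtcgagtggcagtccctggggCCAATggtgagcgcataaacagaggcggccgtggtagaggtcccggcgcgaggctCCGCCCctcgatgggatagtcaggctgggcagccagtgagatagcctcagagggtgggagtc
Cdsn: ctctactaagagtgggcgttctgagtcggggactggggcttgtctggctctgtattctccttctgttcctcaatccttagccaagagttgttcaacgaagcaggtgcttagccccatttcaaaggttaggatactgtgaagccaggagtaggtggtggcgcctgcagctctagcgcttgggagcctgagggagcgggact
The motifs were the TATA box TATAAA, the GC box GGGCGG, the CCAAT box CCAAT, the AP-1 site TGANTCA and the Grainyhead site AACCNGTT, and no match overlapped another.

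The Dsp window held 3 GC boxes, at 137 to 132, 102 to 97 and 80 to 75 bases before the start, and the Jup window held 1, at 112 to 107. A GC box was found in 24.6% of 32851 windows of the same length in the table. Jup also held 2 CCAAT boxes, at 238 to 234 and 167 to 163 bases before the start, a motif present in 28.4% of windows. The Cdsn window held no match to any of the 5 motifs. For the other motifs the shares of all windows were 9.14% (TATA box), 5.57% (AP-1) and 1.42% (Grainyhead). CG dinucleotides numbered 18 in Dsp, 10 in Jup and 6 in Cdsn, against a median of 4 over all windows. A second Cdsn start in the table lies inside the gene, and its window, at chr17:35551878-35552077, is not shown. The Cdsn statements thus hold for the printed window only, and which start was used in this skin was not measured. These are descriptions of letters, and nothing was measured at these promoters.

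Desmosomes hold keratin filaments, and of the keratins the stress keratins Krt16 and Krt6a were past 2-fold. The suprabasal keratins Krt1, Krt10 and Krt2 were not past 1.5-fold. Krt5, the deleted gene, read 81.2 in knockout skin and 46.6 in wild type skin. Its partner Krt14 read 41.6 and 27.0, and both were below the floor, as was the basal keratin Krt15. The genotype could thus not be checked on the array, and none of these basal keratins was measured. Krt1 and Krt10, the keratins that attach to desmosomes in suprabasal cells, read 50258 against 41390 and 37488 against 42588, log2 ratios of 0.28 and -0.18. Of 4 suprabasal keratins 2 were higher and 2 lower, with a median of -0.05, and Krt2, a keratin of the upper layers, was 1.42-fold lower (535 against 761). Krt77, the remaining one, read 263 in knockout skin and 101 in wild type skin, and only the knockout signal was above the floor. Its ratio, at least 1.07-fold higher, is a lower bound, so whether Krt77 was past 1.5-fold is not known. Of the stress keratins Krt16 and Krt6a were 4.58-fold and 2.67-fold higher, Krt6b was 1.42-fold higher and Krt17 was 2.00-fold lower, though these genes have close relatives that the probes may not separate.

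Further desmosome and plakin genes were described in the same way. Of 16 listed genes 6 had a probe set and 5 were measured, 3 higher and 2 lower in the knockout, with a median of 0.15. At least 1.5-fold different were 0 of the 5, against 12.9% of all measured genes, so the count says nothing about this list. Ppl, which encodes periplakin of the cornified envelope, read 10899.6 and 9808, a log2 ratio of 0.15. Macf1, a plakin that links actin and microtubules, was at 0.28 and Pkp3, a plakophilin of all epidermal layers, at -0.17. Pkp2 was below the floor on both arrays.

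Of 24 genes listed as corneodesmosome proteases and inhibitors 17 had a probe set and 12 were measured, 8 higher and 4 lower, with a median of 0.12. Klk5, Klk7, Klk14, St14, Spink5, Ctsv and Cst6 had no probe set with a single symbol. Klk6 was below the floor on both arrays, so the list gives no view of these genes. Among the measured ones were Klk8, Adam9, Adam10, Adam15 and Capn1. Past 1.5-fold was 1 of the 12 measured genes, near the share of 12.9% over all measured genes. It was Prss8, a membrane serine protease needed for the epidermal barrier, which read 1359 in knockout skin and 812 in wild type skin, 1.67-fold higher. Serpina12, which encodes the serpin vaspin, was at 0.58, Ctsd, the lysosomal protease cathepsin D, at 0.01 and Ctsl, cathepsin L, at -0.11.

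Regulators of desmosome genes and proteins included genes past 1.5-fold in both directions. Of 20 measured, 11 were higher and 9 lower, with a median of 0.07, and past 1.5-fold were 5 higher and 2 lower genes. Over all measured genes 7.63% were past 1.5-fold higher and 5.27% lower, and the difference between list and background was not tested. The transcription factor genes Zeb1 and Snai1, repressors of epithelial junction genes that dermal cells also express, were 1.70-fold higher each. Twist1, of the same class, was 1.55-fold higher and Cebpb, a factor of keratinocyte differentiation, 1.60-fold. The kinase gene Src was at least 1.65-fold higher, being below the floor in the wild type. Snai2, the Snail family member of basal keratinocytes, was 1.72-fold lower (2539 against 4372), and Prmt1, an arginine methyltransferase gene, was 1.57-fold lower. Klf4, Cebpa and Mapk14 had log2 ratios of -0.0018, -0.06 and -0.04. Raising the floor to the 60th percentile gave Snai1 a ratio of 0.50, and Prmt1 had one of -0.56 under either quantile normalization or the correction for signal level.

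Adherens junction genes, the other cell-cell junctions that Jup serves, had a median of 0.12 over 13 measured genes, 8 higher and 5 lower. Ctnnb1, which encodes the plakoglobin relative beta-catenin, read 12342 and 15137, a log2 ratio of -0.29. Ctnnd1 was at 0.04 and Actn4 at -0.21. Cdh11, a mesenchymal cadherin, was the single member past 1.5-fold, 1.66-fold higher (492 against 297), and it was at 0.58 with a pseudocount in place of the floor. A count of 1 of 13 lies near the share of 12.9% over all measured genes. Hemidesmosomes attach basal keratin to the basement membrane. The list of hemidesmosome genes also holds genes of other attachments to that membrane, such as Itgb1 and Col7a1. Its median was -0.08 over 10 measured genes, 4 higher and 6 lower. Lamb3, a chain of the laminin that anchors the epidermis, was 1.63-fold lower (1288 against 2102), and its log2 ratio of -0.71 became -1.04 as the mean over its probe sets. It was the single one past 1.5-fold, 1 of 10, again near the share of 12.9%. The integrin genes Itgb4 and Itga6 were at -0.56 and -0.38, Col17a1 was at -0.29, Col7a1 at 0.23 and Itgb1 at 0.17. With plain probe sets only, those named by a number and _at, the hemidesmosome median was -0.29.

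**Figure D3:**
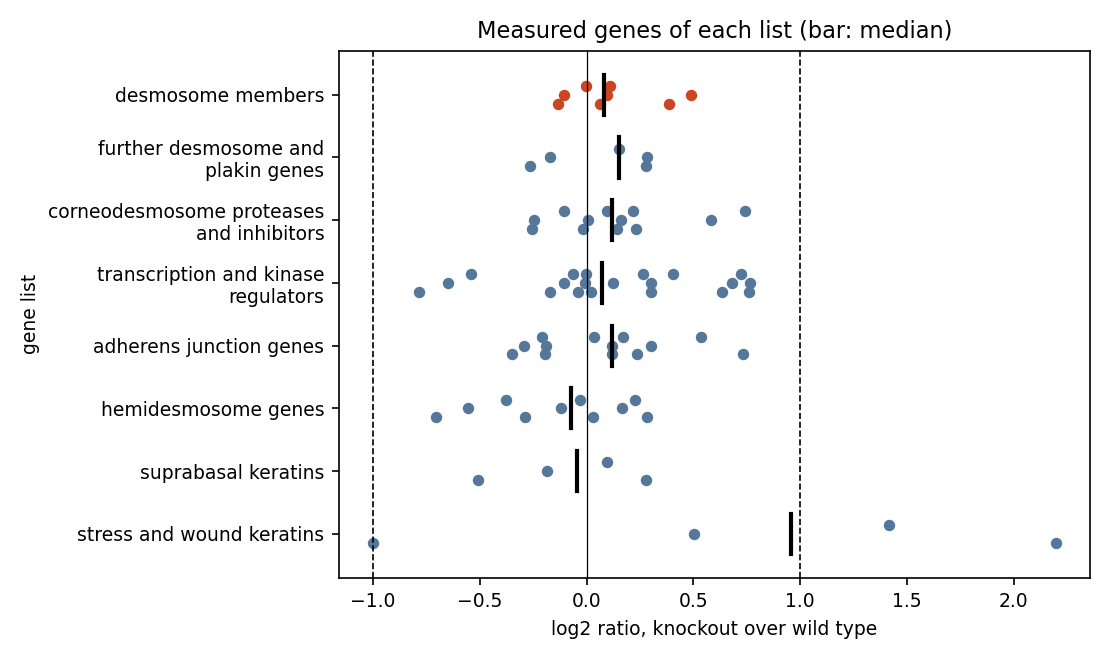
Log2 ratio of knockout over wild type for the measured genes of each list (points) with the list's median (black bar); dashed lines mark 2-fold. The desmosome genes lie between -0.13 and 0.49 and the regulators between -0.78 and 0.77; the stress and wound keratins range from -0.999 to 2.20. The signs of Dsg2 and of the medians of the further desmosome genes, the regulators and the suprabasal keratins turned under at least 1 other setting.

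Most measured markers of differentiating keratinocytes were higher in the knockout. Krt2, a keratin of the upper layers that is not on this list, was 1.42-fold lower. Of 11 listed genes 8 were measured, 7 higher and 1 lower, with a median of 0.23, where 53.9% of all measured genes were higher. The summed signal of the listed genes on the array was 284934 in knockout skin and 249949 in wild type skin. Ivl, which encodes the envelope precursor involucrin, was 2.41-fold higher, Flg, which encodes filaggrin, was 1.39-fold and Lor, the loricrin gene, 1.23-fold higher. The others were Krt1 at 1.21-fold, Calm4 at 1.14-fold, Tgm3 at 1.07-fold, Krtdap at 1.02-fold and Krt10 at 0.880-fold of the wild type signal. The list's median was 0.09 with quantile normalization.

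Markers of other cell types differed between the arrays as well. The counts of higher genes below stand beside 53.9% of all measured genes with a ratio above 0. Hair follicle genes were higher in 11 of 11 measured, with a median of 0.50 and summed signals of 25140.2 and 17572. Of these, Krt34 was below the floor in wild type skin, so its ratio is a bound. Macrophage genes were higher in 10 of 10 measured, with a median of 0.54 and sums of 17729 and 12759. Dermal fibroblast genes had a median of 0.26, with 8 of 10 higher and sums of 244867 and 214516. The dimmest of these 10 read 6701 and 3305, far above the floor on both arrays, although the source name says epidermis. The medians were 0.22 for skeletal muscle (12 of 12 higher, sums of 109297 and 93492), 0.15 for endothelium (6 of 8, 9846 and 9221), 0.10 for adipocytes (4 of 6, 15973 and 12938) and -0.04 for melanocytes (1 of 4, 7103 and 7584). No marker of these lists on the array read 0, but Foxn1, Aif1, Fcgr3, Flt1, Tyr and Mitf were below the floor on both arrays and were not measured. The part of tissue makeup in the desmosome values was not tested.

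**Figure D4:**
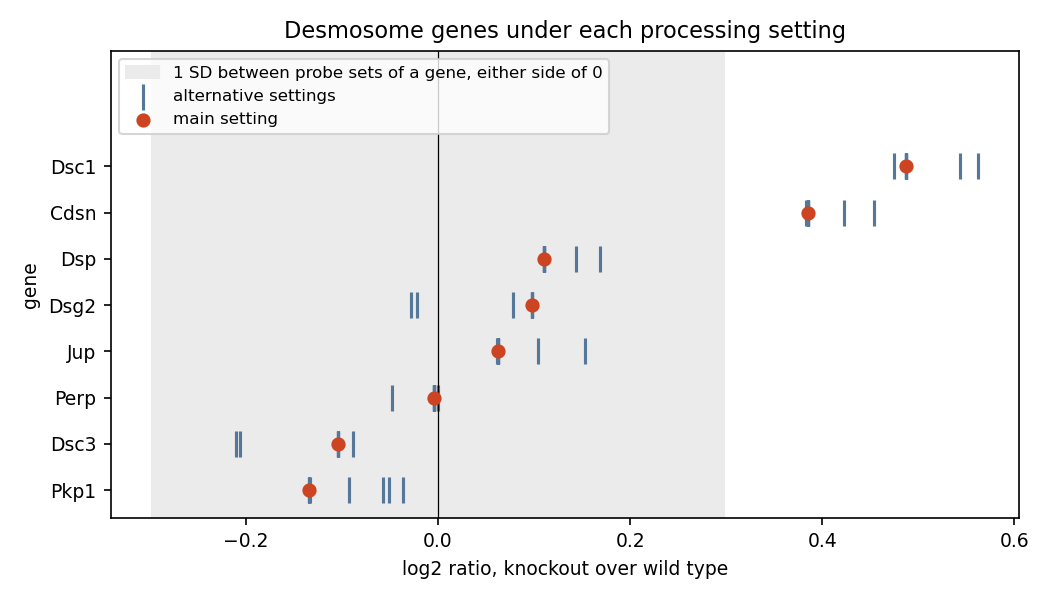
Log2 ratio of knockout over wild type of each measured desmosome gene under the main setting (points) and under up to 8 alternative settings (bars); the shaded band is 1 SD between probe sets of a gene, 0.30, on either side of 0. Dsc1 and Cdsn stay above the band under every setting run, though only the pseudocount and the scaling settings could move them. Dsg2 changes sign under 2 settings.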

How the data were processed

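RNA of 6 newborn animals per group was pooled, labelled with biotin from 2 µg and read on 1 array per group, per the labels' protocols. The deposited file gives linear intensities, which the authors made with MAS5 per the submitters' processing notes; its version, scaling target and detection calls are not given in the sources used here. Of 12488 probe sets, 66 were controls, 10833 had 1 gene symbol in the platform annotation, 396 several and 1193 none; genes were named only from the first kind.

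From the deposited intensities, both arrays were brought to a shared 2% trimmed mean of the non-control probe sets (factors of 1.0001 and 0.9999). Values were floored at the 40th percentile, 246.7, and log2 ratios were taken. The brightest probe set stood for a gene, and a gene counted as measured if above the floor on at least 1 array. With 1 array per group no test was run, results are sizes, and the number of arrays limits their precision. Python 3.11.15, pandas 2.3.3 and statsmodels 0.14.6 were used, and the calculation was tested on simulated data. The 10 genes and all gene lists were chosen with earlier results of these data known. Apart from the 10 genes and the marker lists, the text gives values for the measured genes at least 1.5-fold different and the 3 brightest others of each list. Values of Trp63, Krt77, Itgb4 and Itga6 were added after they were seen. The 8 alternatives covered the floor, a pseudocount of 100, the scaling (quantile normalization, or a lowess correction of the ratio for signal level), the choice of probe sets and the rule for measured genes.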

Additional observations from a re-analysis of the deposited data

How the results depend on the processing

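Over 8 alternative settings, all 62 values of the 8 measured desmosome genes moved by less than the SD of 0.30 between probe sets. Under any of these settings, 0 of the genes was at least 1.5-fold different. Many of the 62 values could not move. For a gene with a single probe set well above the floor, only the pseudocount and the scaling settings could alter the ratio. The list's median was lowest, 0.04, under quantile normalization and highest, 0.09, under a 60th percentile floor, where 6 genes were measured and Dsg2 and Dsc3 were not. Dsc1 ran from 0.48 to 0.56 and Cdsn from 0.38 to 0.45. The median of the stress and wound keratins was 1.42 with plain probe sets only, against 0.96, where Krt17 was not measured. Medians near 0 turned sign: the further desmosome genes had -0.01 with the floor at the 25th percentile, the regulators -0.0018 under the 60th percentile floor, and the suprabasal keratins 0.05 with the lower floor or a pseudocount, and the melanocyte markers 0.02 with the lower floor. Over all measured genes the median was -0.0037 with quantile normalization. Over all genes the 2-fold calls were 205 higher and 94 lower with the lower floor and 44 and 19 with the higher floor, against 92 and 42. Of 13 other named genes at least 1.5-fold different, 10 were so under every setting that measured them; the exceptions were Snai1, Prmt1 and Cdh11. No paired analysis was possible because each group is 1 pooled array.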
